A study of Mus musculus with 8 samples.

Results

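The 10 circadian clock genes Per1, Per2, Per3, Nr1d1, Nr1d2, Dbp, Tef, Arntl, Clock and Ciart were read in the retina of mice with an inherited loss of rods. They were picked by symbol out of the 57010 gene identifiers in the count table, and each symbol matched 1 identifier. All 10 were among the 20457 genes with enough reads to be tested. The libraries were made from poly-A RNA of 1 whole retina each, with 2 libraries in each of 4 groups. The groups were wild-type mice aged 15 postnatal days (WT P15) and rd10 mice of 3 ages (rd10 P15, rd10 P18 and rd10 P21, named by postnatal day). The rd10 allele is a mutation of Pde6b, a subunit of the rod phosphodiesterase, and it is present in every cell of the animal. The study kept its mice on a light/dark cycle, and the hour at which the retinas were taken is not given in the sources used here. No group received a drug. WT retinas were sequenced at P15 alone, so age and genotype cannot be told apart in the comparisons of rd10 P18 and rd10 P21 with WT P15.

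The mammalian clock is a loop of transcription. ARNTL (also called BMAL1) and CLOCK bind E-box sequences as a pair and switch on the genes of their own repressors, among them the PER proteins and CIART (also called CHRONO), and those of the nuclear receptors NR1D1 and NR1D2 (REV-ERB alpha and beta), which in turn repress Arntl. DBP and TEF are output factors that bind D-box sequences and pass the rhythm on. Many retinal cell types run this loop, it is set by light, and the level of most of these mRNAs depends on the hour of the day.

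Library totals lay between 28076947 and 33724562 counts. Rod and cone markers were read in every library, and the summed level of 6 rod markers was 31867 to 40374 CPM (counts scaled to a common library size) in the WT retinas and 15241 to 24618 CPM in the rd10 groups. In bulk RNA, fewer cells of a type and less RNA per cell cannot be told apart. One library, rd10 P18 replicate 1, stood apart by gene length. Its median log2 CPM, measured from each gene's mean over the 8 libraries, ran from 0.33 in genes with up to 2000 bases of exon to -0.57 in genes with over 12000 bases, and each other library stayed between -0.09 and 0.16. Y-linked and Xist counts gave both WT P15 retinas as female, both rd10 P15 retinas as male, and 1 of each sex in both later groups. Sex and genotype therefore cannot be told apart between WT P15 and rd10 P15 alone.

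Promoter windows show where these genes carry the letters that the loop reads. The windows, from RefSeq on GRCm38.p6, span 250 bases before to 50 after an annotated start, and 9 of the 10 genes had at least 1, giving 14 windows in all; Per2 had none. The E-box CACGTG occurred in 4 of the 14 windows, against 7.15% of all 32851 windows. The D-box TTATGNAA occurred in 2 of the 14, against 3.38% of all, and the core of the ROR element, AGGTCA, which REV-ERB receptors also bind, in 4, against 16.3%. Both strands were searched, and no match overlapped another in the stretches shown. The first stretch is Ciart (chr3:95882252-95882374, minus strand), shown because Ciart differed most between rd10 P15 and WT P15 and its window held 3 E-boxes. Per1 (chr11:69098753-69098947, plus strand) held 1 match to each motif, and this start lies inside the longer annotated gene, with no annotated exon in the stretch. Per3 (chr4:151044801-151044900, minus strand) held 2 D-boxes, and Nr1d2 (chr14:18239163-18239213, minus strand) held 1 ROR core. The sequences are written 5′ to 3′ on the strand of the gene, and the capitals mark the motifs on either strand.
Ciart: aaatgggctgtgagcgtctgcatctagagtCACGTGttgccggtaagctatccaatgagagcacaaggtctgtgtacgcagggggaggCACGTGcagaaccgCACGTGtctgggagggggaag
Per1: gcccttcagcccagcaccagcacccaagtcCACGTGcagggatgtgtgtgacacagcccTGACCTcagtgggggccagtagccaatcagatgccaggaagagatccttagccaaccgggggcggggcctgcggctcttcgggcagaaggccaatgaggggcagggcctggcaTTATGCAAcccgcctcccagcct
Per3: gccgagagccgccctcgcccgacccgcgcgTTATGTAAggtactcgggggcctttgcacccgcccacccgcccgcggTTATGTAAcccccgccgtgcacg
Nr1d2: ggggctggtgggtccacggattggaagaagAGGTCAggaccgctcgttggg
Both windows of Tef also held 1 E-box each, and 1 window each of Clock and Arntl held a ROR core. The windows of Nr1d1 and Dbp held none of the 3 motifs, which says only that these letters are not in those stretches.

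Levels between genes were compared as CPM per kilobase of summed exons. Averaged over the 8 libraries, Nr1d1 stood highest at 63.3 ± 13.6 (SD, n = 8) CPM per kb, followed by Dbp at 51.7 ± 9.32 and Nr1d2 at 37.3 ± 4.37. Tef reached 26.9 ± 11.8 and Per1 19.4 ± 3.81 CPM per kb. Clock at 12.2 ± 1.86, Per3 at 12.01 ± 2.17 and Arntl at 11.4 ± 1.53 CPM per kb did not differ beyond their spread. The lowest were Per2 at 5.71 ± 1.44 and Ciart at 5.30 ± 1.70 CPM per kb, which also lay within each other's spread. By the same SD, Nr1d2 and Tef, and Tef and Per1, were neighbours that lay within their spread. This SD includes the differences between the groups. Ciart was above Per2 in both WT retinas (7.40 and 7.66 against 6.81 and 7.09). It was below Per2 in both rd10 P15 retinas (3.18 and 3.55 against 4.43 and 4.51) and in both rd10 P21 retinas, and the rd10 P18 retinas were mixed. Within each of the 8 libraries Nr1d1 was above Dbp, and Dbp above Nr1d2, though the ranges of these neighbours over the libraries overlapped. The 8 values of Per1 lay above those of Clock and those of Arntl above those of Per2. In raw reads the 10 genes ran from 226 counts (Ciart, rd10 P15 replicate 1) to 12803 counts (Tef, rd10 P21 replicate 1).

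At P15, 8 of the 10 genes were lower in both rd10 retinas than in both WT retinas, against 24.9% of all tested genes that were lower without overlap. These were the 3 Per genes, both Nr1d genes, Dbp, Ciart and, by a small margin, Arntl. The median log2 fold change of the 10 was -0.47, beside -0.01 over all tested genes. A gene was called when its Benjamini-Hochberg adjusted p in edgeR's quasi-likelihood test was under 0.05 and its absolute log2 fold change over 1. None of the 10 was called, against 0.23% of all tested genes. At an unadjusted p under 0.05 edgeR gave 7 of the 10, all lower in rd10, where 12.3% of all genes passed. DESeq2, under the same criteria, called Ciart alone, where it called 2.14% of all genes. With 2 libraries a group the smallest two-sided p of an exact permutation test is 0.333, so the model fits alone can pass a threshold here.

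**Figure D1:**
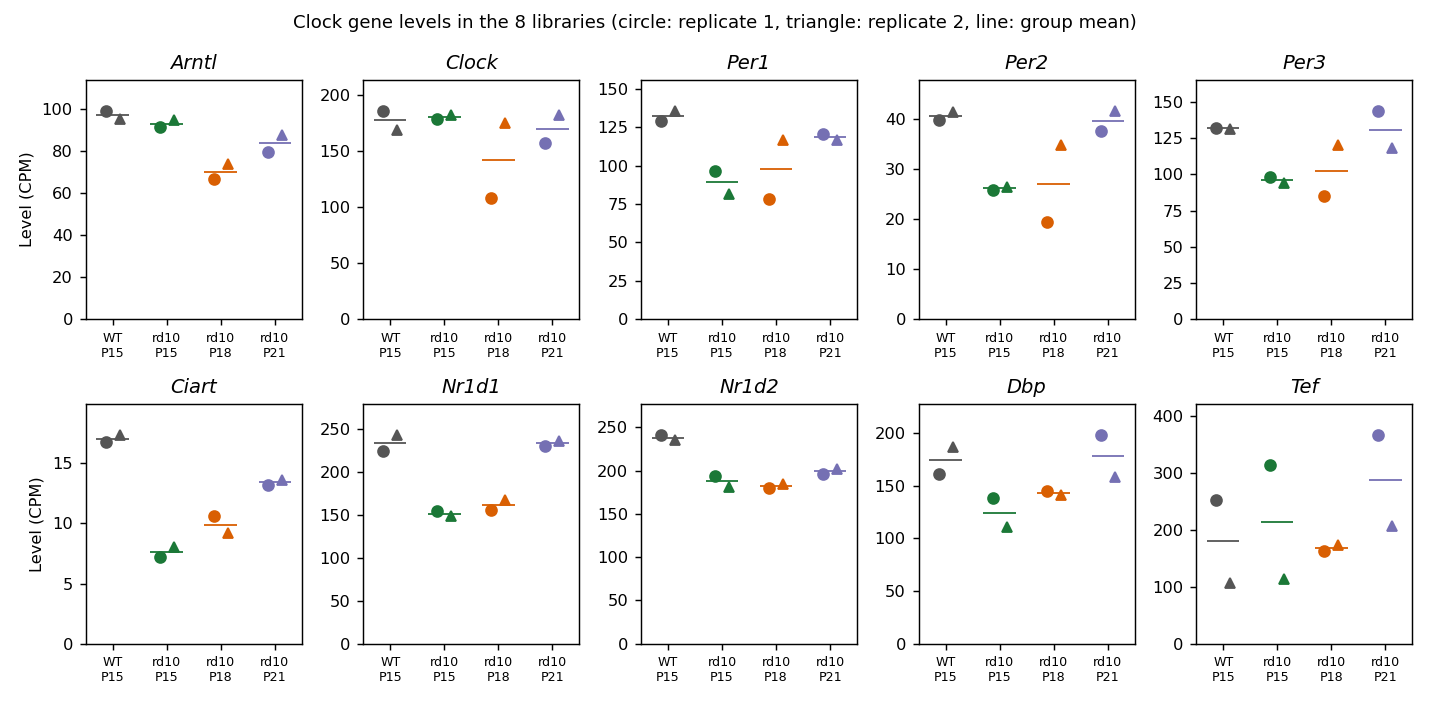
CPM of each of the 10 clock genes (vertical axes from 0, one scale per gene) in the 4 groups, with a circle for replicate 1, a triangle for replicate 2 and a line at the mean of the 2 libraries. In Ciart, Nr1d1, Nr1d2 and the Per genes both rd10 P15 libraries lie below both WT P15 libraries, and in Tef the 2 libraries of WT P15 and of rd10 P15 lie far apart.

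Arntl and Clock encode the activating pair; the position of each of the 10 genes is given on GRCm38 with GENCODE annotation. Arntl (ENSMUSG00000055116, chr7:113207465-113314126, plus strand) stood at 98.9 and 95.1 CPM in the WT retinas, and in the rd10 retinas at 91.1 and 94.6 (P15), 66.5 and 73.8 (P18), and 79.5 and 87.7 (P21). Its WT and rd10 P15 libraries lay side by side, and both rd10 P18 libraries were below every other library. Its log2 fold change against WT P15 was -0.06 (SE 0.13, edgeR adjusted p = 0.904) at P15 and -0.47 (SE 0.13, adjusted p = 0.112) at P18. At P21 it was -0.21 (SE 0.13, adjusted p = 0.575). DESeq2 gave an adjusted p of 0.0375 for the P18 difference, a fold of 0.723. Arntl shares 33 exonic bases with Gm45355 on the opposite strand, which had no count in any library.

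Clock (ENSMUSG00000029238, chr5:76209868-76304792, minus strand) was read at 186 and 169 CPM in the WT retinas, and in the rd10 retinas at 179 and 182 (P15), 108 and 175 (P18), and 158 and 182 (P21). The WT P15, rd10 P15 and rd10 P21 libraries overlapped, and both rd10 P18 libraries were below both rd10 P15 libraries, replicate 1 far more than replicate 2. Clock has the longest exons of the 10 genes, 13727 bases. In edgeR its log2 fold change against WT P15 was 0.03 (SE 0.21, adjusted p = 0.986) at P15 and -0.32 (SE 0.21, adjusted p = 0.48) at P18. At P21 it was -0.06 (SE 0.21, adjusted p = 0.966).

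The PER proteins are the repressors that close the loop. Per1 (ENSMUSG00000020893, chr11:69095217-69109960, plus strand) was read at 129 and 136 CPM in the WT retinas, and in the rd10 retinas at 96.8 and 81.3 (P15), 78.5 and 117 (P18), and 121 and 117 (P21). Per2 (ENSMUSG00000055866, chr1:91415982-91459324, minus strand) was read at 39.9 and 41.5 CPM in the WT retinas, and in the rd10 retinas at 26.0 and 26.4 (P15), 19.4 and 34.9 (P18), and 37.7 and 41.7 (P21). Per3 (ENSMUSG00000028957, chr4:151003652-151044665, minus strand) was read at 132 and 131 CPM in the WT retinas, and in the rd10 retinas at 98.4 and 94.3 (P15), 84.9 and 120.3 (P18), and 144 and 118 (P21). All 3 showed the same order: both WT P15 libraries were above both rd10 P15 libraries, the rd10 P18 libraries lay far apart with replicate 1 the lowest of all 8, and the rd10 P21 libraries were close to WT P15. At P15 the log2 fold change was -0.57 (SE 0.19) for Per1, -0.64 (SE 0.25) for Per2 and -0.45 (SE 0.18) for Per3. The edgeR adjusted p was 0.276, 0.35 and 0.366 in that order, and none was called. At P18 the log2 fold change from WT P15 was -0.44 (SE 0.19, adjusted p = 0.288) for Per1, -0.58 (SE 0.25, adjusted p = 0.277) for Per2 and -0.36 (SE 0.18, adjusted p = 0.356) for Per3. At P21 it was -0.16 (SE 0.19, adjusted p = 0.848), -0.04 (SE 0.25, adjusted p = 0.983) and -0.01 (SE 0.18, adjusted p = 0.994).

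Ciart (ENSMUSG00000038550, chr3:95878503-95882251, minus strand), whose product represses the ARNTL and CLOCK pair, had the largest difference of the 10 at P15. It stood at 16.7 and 17.3 CPM in the WT retinas, and in the rd10 retinas at 7.19 and 8.04 (P15), 10.6 and 9.17 (P18), and 13.2 and 13.6 (P21). The 4 groups did not overlap, and they stood in the order WT P15, rd10 P21, rd10 P18 and rd10 P15 from high to low. The rd10 P15 level was 0.447 of WT P15, a log2 fold change of -1.16 (SE 0.20), with an adjusted p of 0.0626 in edgeR and 0.000325 in DESeq2. At P18 the log2 fold change was -0.78 (SE 0.20), with an adjusted p of 0.0993 in edgeR and 0.0227 in DESeq2. At P21 it was -0.34 (SE 0.20, edgeR adjusted p = 0.57). Ciart was also the shallowest of the 10, with 226 and 228 counts in the rd10 P15 libraries and 453 and 535 in the WT libraries. The stretch with 3 E-boxes printed above lies just before its start.

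Nr1d1 and Nr1d2 encode the REV-ERB receptors, which read heme and repress Arntl. Nr1d1 (ENSMUSG00000020889, chr11:98767932-98775333, minus strand) was read at 224 and 243 CPM in the WT retinas, and in the rd10 retinas at 154 and 148 (P15), 156 and 168 (P18), and 230.2 and 236 (P21). The 4 rd10 P15 and P18 libraries formed a low set, and the WT P15 and rd10 P21 libraries a high one, with no value between 168 and 224 CPM. The log2 fold change from WT P15 was -0.63 (SE 0.12) at P15, a fold of 0.648, with an adjusted p of 0.0737 in edgeR and 0.000566 in DESeq2. It was -0.53 (SE 0.12) at P18, with an adjusted p of 0.076 in edgeR and 0.00333 in DESeq2. At P21 the edgeR fold was 0.999 (SE of the log2 fold change 0.12). Nr1d1 overlaps Thra, a thyroid hormone receptor gene on the opposite strand, by 263 exonic bases, and the library kit is not described as marking strand. Thra ran from 305 to 397 CPM, and its log2 fold change at P15 was 0.32, opposite in sign to that of Nr1d1.

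Nr1d2 (ENSMUSG00000021775, chr14:18204054-18239127, minus strand) was read at 241 and 236 CPM in the WT retinas, and in the rd10 retinas at 193 and 182 (P15), 180.2 and 185 (P18), and 197 and 202 (P21). Every rd10 library was below both WT P15 libraries. Its log2 fold change from WT P15 was -0.34 (SE 0.12, edgeR adjusted p = 0.279) at P15, -0.38 (SE 0.12, adjusted p = 0.146) at P18 and -0.26 (SE 0.12, adjusted p = 0.444) at P21. DESeq2 gave an adjusted p of 0.042 at P18. From the lowest to the highest library Nr1d2 spanned a factor of 1.34, the narrowest of the 10 genes.

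Dbp and Tef encode D-box binding output factors of the same family, and their values behaved unlike each other. Dbp (ENSMUSG00000059824, chr7:45705088-45710203, plus strand) was read at 161 and 187 CPM in the WT retinas, and in the rd10 retinas at 138 and 110.5 (P15), 145 and 141 (P18), and 198 and 158 (P21). Both rd10 P15 and both rd10 P18 libraries were below both WT P15 libraries, and rd10 P21 enclosed them. The log2 fold change from WT P15 was -0.49 (SE 0.17, edgeR adjusted p = 0.285) at P15, -0.28 (SE 0.17, adjusted p = 0.43) at P18 and 0.03 (SE 0.17, adjusted p = 0.978) at P21. Dbp shares 539 exonic bases with Sphk2 on the opposite strand, which was read at 17.4 to 26.8 CPM, with a log2 fold change of 0.43 at P15.

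Tef (ENSMUSG00000022389, chr15:81802421-81826863, plus strand) was read at 252 and 107 CPM in the WT retinas, and in the rd10 retinas at 313 and 113 (P15), 163 and 174 (P18), and 366 and 207 (P21). In WT P15, rd10 P15 and rd10 P21 replicate 1 was above replicate 2, by 1.24, 1.46 and 0.82 on the log2 scale, and the replicates of every other gene of the 10 in those 3 groups differed by at most 0.32. The log2 fold change from WT P15 was 0.25 (SE 0.61, edgeR adjusted p = 0.923) at P15, -0.09 (SE 0.61, adjusted p = 0.963) at P18 and 0.67 (SE 0.61, adjusted p = 0.764) at P21. These differences were smaller than or close to the spread between replicates, and with library size scaling the sign at P18 turned (0.04). A Gm17597 transcript on the opposite strand shares 193 exonic bases with Tef and was read at 1.39 to 3.14 CPM.

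**Figure D2:**
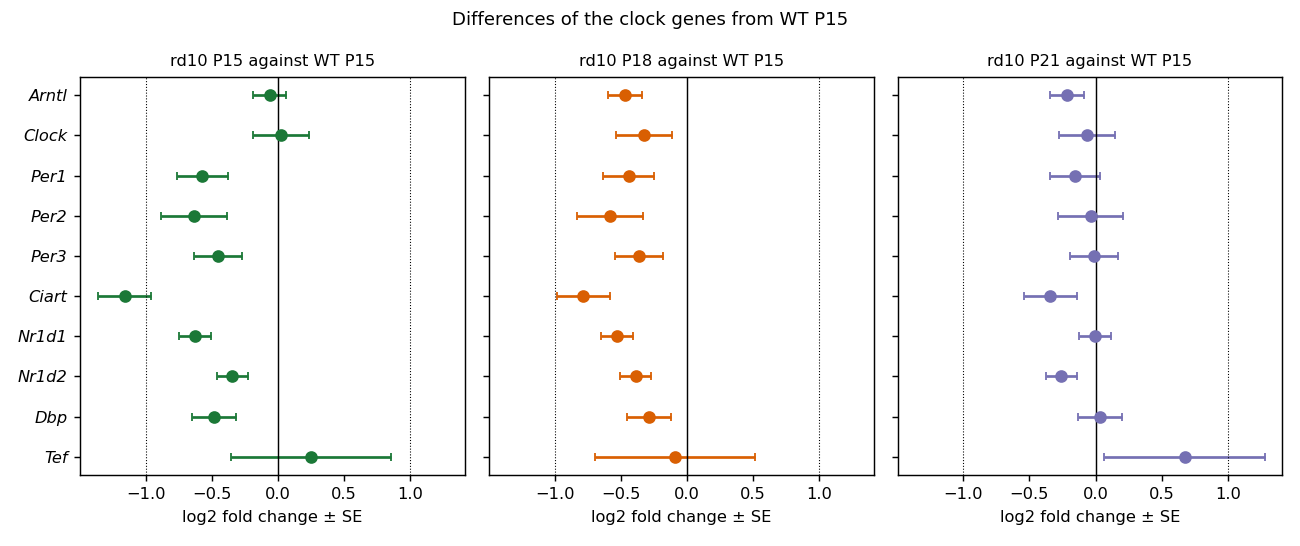
edgeR log2 fold change (points) and its SE (bars) for the 10 genes in rd10 P15, rd10 P18 and rd10 P21 against WT P15, with dotted lines at the fold threshold of 1 in either direction. Ciart at P15 (-1.16) is the single point beyond the threshold, Tef has the widest bars (SE 0.61), and at P21 the values of Per2, Per3, Nr1d1, Dbp and Clock lie near 0.

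Against WT P15, rd10 P18 gave 8 of the 10 genes lower without overlap of the libraries, against 22.9% of all tested genes. Their median log2 fold change was -0.41, beside 0.01 over all genes. edgeR called none of them, against 1.48% of all genes, and 5 had an unadjusted p under 0.05, all lower, against 17.4%. DESeq2 also called none, against 4.67%. For rd10 P21 the 10 genes had a median of -0.05, beside 0.00 over all genes, and 4 (Per1, Nr1d2, Arntl and Ciart) were lower without overlap, against 24.2%. None was called by edgeR (0.386% of all genes) or by DESeq2 (2.8%), and none had an unadjusted p under 0.05 (11.8%). The 3 comparisons share the WT P15 libraries, so they are not independent of each other.

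Other measures moved beside these differences. The summed level of 5 cone markers was 940 to 1252 CPM in the WT retinas, against 525 to 613 at rd10 P15, 749 to 768 at rd10 P18 and 935 to 1048 at rd10 P21. The 3 red blood cell markers summed to 137 to 144 CPM in the WT retinas and 54.0 to 67.8 at rd10 P15, and the 5 pigment epithelium markers to 34.5 to 138 and 177 to 217. The 3 endothelial markers summed to 21.6 to 22.9 CPM in the WT retinas and 67.1 to 70.5 at rd10 P15. Microglial markers (5) summed to 32.3 to 32.7 CPM in the WT retinas, 49.8 to 54.9 at rd10 P15, 98.9 to 111 at rd10 P18 and 86.7 to 159 at rd10 P21. Pigment epithelium markers were at 16.8 to 28.8 CPM over the rd10 P18 and P21 libraries, and the 4 Muller glia markers at 2464 to 2509 CPM at rd10 P18 and 3630.4 to 3730.2 at rd10 P21. No marker of these lists was at 0 in every library. The part of these cells, of sex and of the hour of collection in the clock gene values was not tested. In a fit with a term for sex, which the mixed P18 and P21 groups allow, the log2 fold change at P15 was -1.24 (SE 0.30, edgeR adjusted p = 0.282) for Ciart, -0.55 (SE 0.16, adjusted p = 0.378) for Nr1d1 and -0.66 (SE 0.22, adjusted p = 0.43) for Dbp. In the same fit it was -0.31 (SE 0.24, adjusted p = 0.72) for Per1 and -0.14 (SE 0.27, adjusted p = 0.90) for Per2. Clock moved from 0.03 to 0.48 (SE 0.20, adjusted p = 0.516).

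The rd10 P18 values of the 3 Per genes and Clock turned on replicate 1. Replicate 1 minus replicate 2 in log2 CPM was -0.69 for Clock, where the median of genes over 12000 bases was -0.64, and -0.50 for Per3, where the median of its length class was -0.36. For Per1 and Per2 it was -0.57 and -0.84, where the median of their class, 4000 to 6000 bases, was -0.06. The remaining 6 genes differed by between -0.15 (Arntl) and 0.21 (Ciart). Replicate 1 was the lowest of the 8 libraries for 6 of the 10 genes. Without it, the rd10 P18 library left is assumed to vary like the other groups, and the log2 fold change from WT P15 was -0.18 for Per1, -0.22 for Per2, -0.13 for Per3 and -0.02 for Clock. It was -0.48 for Nr1d1, -0.37 for Nr1d2, -0.30 for Dbp, -0.39 for Arntl and -0.89 for Ciart. The P18 values of Nr1d1, Nr1d2, Dbp, Arntl and Ciart were close with and without this library, and those of the Per genes and Clock lay nearer 0 without it.

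**Figure D3:**
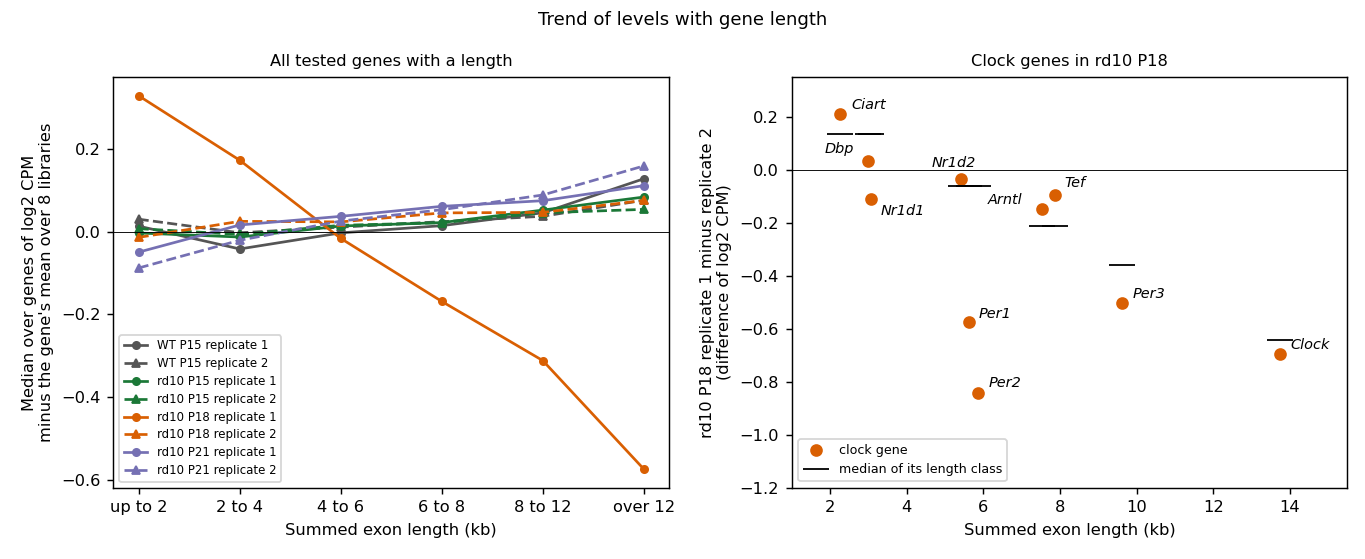
Left, the median over genes of log2 CPM minus the gene's own mean over the 8 libraries, by class of summed exon length in kb, for each library. Right, replicate 1 minus replicate 2 of rd10 P18 in log2 CPM for the 10 genes (points) and the median of each gene's length class (dashes); Clock (-0.69) lies near its class and Per2 (-0.84) far below it.

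A fit in which each library's trend on gene length was taken out, chosen after the data were seen, gave a log2 fold change at P18 of -0.08 (SE 0.11, edgeR adjusted p = 0.747) for Clock. It gave -0.93 (SE 0.19, adjusted p = 0.0383) for Ciart and -0.63 (SE 0.11, adjusted p = 0.0238) for Nr1d1, both under the fold threshold. At P15 the same fit called Ciart, at -1.16 (SE 0.19, adjusted p = 0.0291), and gave Nr1d1 at -0.64 (SE 0.11, adjusted p = 0.0365). More genes passed over all genes too. At P15, 287 of 19858 genes had an adjusted p under 0.05 and 161 were called, against 49 and 47 of 20457 with the trend left in. At P18 these numbers were 608 and 375, against 386 and 303. Leaving out either rd10 P18 library brought the same 4 genes under an edgeR adjusted p of 0.05 at P15, with Ciart the one called. Without replicate 1 the adjusted p was 0.00893 for Nr1d1, 0.0224 for Ciart, 0.0286 for Per1 and 0.0378 for Per2, and 659 of 21889 genes passed, against 49 of 20457 with all libraries. Without replicate 2 it was 0.00928, 0.0224, 0.0301 and 0.0426 in that order, and 616 of 21945 genes passed. At P18, 7 of the 10 genes had an adjusted p under 0.05 without replicate 2, and Per2 was called at -1.07 (SE 0.16, adjusted p = 0.00469). In that fit 3034 of 21945 genes passed and 1250 were called, against 386 and 303 of 20457 with all libraries.

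**Figure D4:**
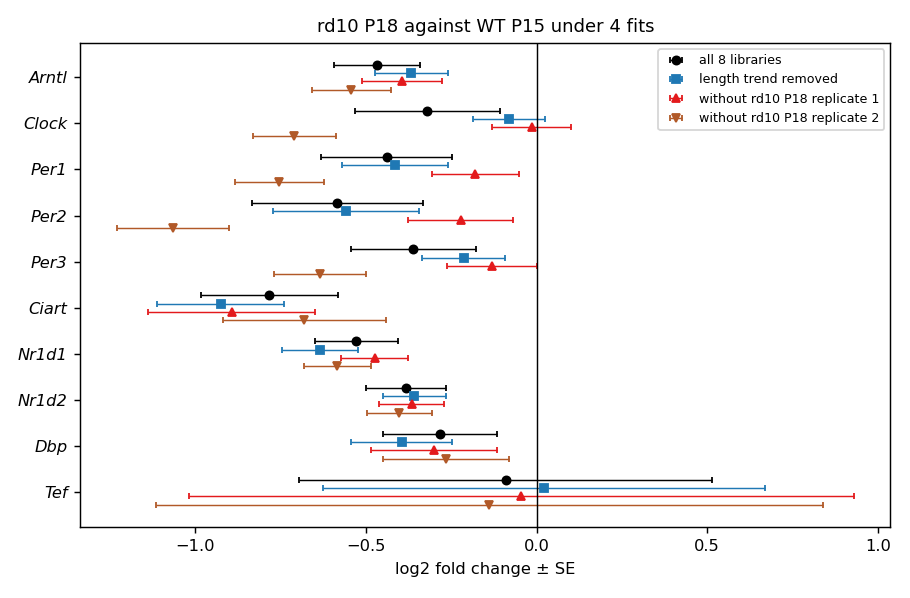
Log2 fold change and SE of the 10 genes in rd10 P18 against WT P15 from 4 edgeR fits: all 8 libraries, the length trend removed, and each rd10 P18 library left out. The 4 values stay close for Nr1d2 and Nr1d1 and spread widely for Per2, from -1.07 without replicate 2 to -0.22 without replicate 1.

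Among the rd10 groups, rd10 P21 stood above rd10 P15 for most of the 10 genes. Of these, 7 were higher without overlap, against 26% of all tested genes, and the median log2 fold change was 0.43, beside 0.01 over all genes. The largest were Ciart at 0.82 (SE 0.20, edgeR adjusted p = 0.158), Nr1d1 at 0.63 (SE 0.12, adjusted p = 0.0859) and Per2 at 0.60 (SE 0.25, adjusted p = 0.369). edgeR called none, against 0.401% of all genes, and 5 had an unadjusted p under 0.05, all higher, against 12.8%. DESeq2 called none either, against 2.61%, and gave adjusted p values of 0.000504 for Nr1d1 and 0.03 for Ciart. Arntl and Clock, the activators, had values of -0.15 (SE 0.13, adjusted p = 0.673) and -0.09 (SE 0.21, adjusted p = 0.91).

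From rd10 P15 to rd10 P18 the differences were small and mixed. Lower without overlap were 2 genes (Arntl and Clock), against 20.4% of all genes. Higher without overlap were 3 (Nr1d1, Dbp and Ciart), against 21.9%, so both counts were near the share of all genes. The largest differences were Arntl at -0.40 (SE 0.13, edgeR adjusted p = 0.242), Ciart at 0.38 (SE 0.20, adjusted p = 0.477) and Clock at -0.35 (SE 0.21, adjusted p = 0.542). Clock was at -0.04 without rd10 P18 replicate 1 and at -0.10 with the length trend removed. Per1, at 0.13 with all libraries, was at 0.39 without replicate 1 and at -0.18 without replicate 2. None was called by edgeR (0.591% of all genes) or DESeq2 (2.92%), and Arntl alone had an unadjusted p under 0.05 (12.9%). From rd10 P18 to rd10 P21 all 10 values were above 0, with 8 genes higher without overlap, against 21% of all genes. Without rd10 P18 replicate 1 the value of Clock was -0.05, that of Per1 0.02 in place of 0.28, and that of Per2 0.19 in place of 0.55, and with the length trend removed Clock was at -0.04. The largest with all libraries were Tef at 0.77 (SE 0.61, adjusted p = 0.664), Per2 at 0.55 (SE 0.25, adjusted p = 0.474) and Nr1d1 at 0.53 (SE 0.12, adjusted p = 0.406). None was called by edgeR (0.0196%) or DESeq2 (0.557%), and Nr1d1 alone had an unadjusted p under 0.05 (10.8%), with a DESeq2 adjusted p of 0.0189.

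By the median, replicates of the clock genes were closer than those of all tested genes, with exceptions. The median absolute difference between the 2 libraries of a group, in log2 CPM, was 0.06 for the 10 genes at WT P15 and 0.08 at rd10 P15, beside 0.24 over all tested genes in both groups. It was 0.18 beside 0.42 in rd10 P18, and 0.14 beside 0.24 in rd10 P21. Tef differed by more than the median of all genes in WT P15 (1.24), rd10 P15 (1.46) and rd10 P21 (0.82). So did Per1 (0.25) and Dbp (0.32) in rd10 P15, and Per3 (0.29) and Dbp (0.32) in rd10 P21. In rd10 P18 Per1, Per2, Per3 and Clock did so, with replicate 1 below replicate 2 (-0.57, -0.84, -0.50 and -0.69). Low counts spread more, and all 10 genes had at least 226 counts in every library.

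Another 20 clock genes, listed by their place in the loop, were all tested, and most showed no called difference. Usp2, a deubiquitinating enzyme with a rhythmic transcript, fell in rd10 P15 against WT P15, from 177 and 155 CPM to 79.7 and 81.6 CPM, a log2 fold change of -1.04 (SE 0.14, edgeR adjusted p = 0.0326). It was the 1 gene of the 20 called there, where 0.23% of all genes were called. At an unadjusted p under 0.05 there were 3 of the 20, all lower, beside 12.3% of all genes, and DESeq2 called 2, beside 2.14%. Bhlhe40, a repressor that competes for E-boxes, was read at 77.6 and 80.2 CPM in the WT retinas and 43.8 and 34.7 at rd10 P15, a log2 fold change of -1.01 (SE 0.15, edgeR adjusted p = 0.0529). It rose between rd10 P15 and rd10 P21, to 86.1 and 77.1 CPM, by 1.05 (SE 0.15, adjusted p = 0.0364). Bhlhe40 was the 1 gene of the 20 called in that comparison, where 0.401% of all genes were called. The other large difference at P15 was Npas2, a partner of ARNTL, at 0.70 (adjusted p = 0.548). No gene of the 20 was called in rd10 P18 or rd10 P21 against WT P15, where edgeR called 1.48% and 0.386% of all genes. DESeq2 also called none, where it called 4.67% and 2.8%. An unadjusted p under 0.05 was reached by 5 of the 20 at P18, beside 17.4% of all genes, and by 2 of the 20 at P21, beside 11.8%. At P18 the largest was Nfil3, a repressor of D-box genes, at 0.74 (SE 0.19, adjusted p = 0.093). The median log2 fold change of the 20 was -0.15 at P15, -0.07 at P18 and 0.01 at P21.

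**Figure D5:**
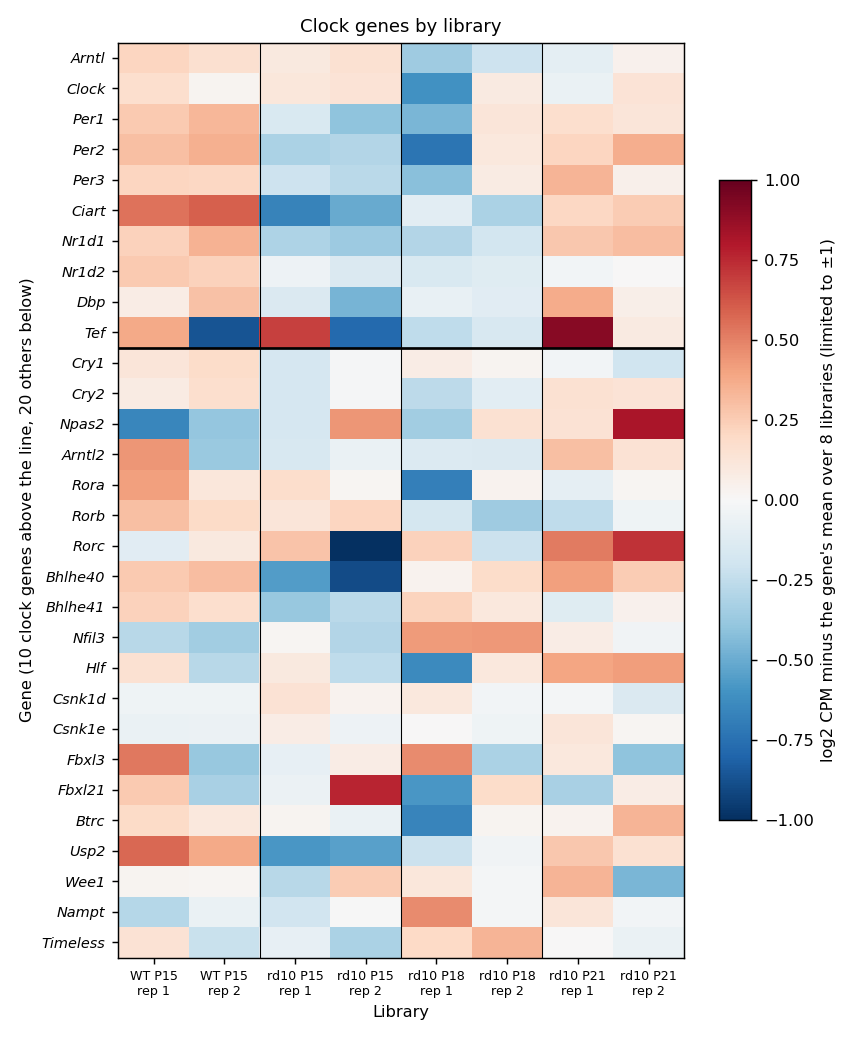
Log2 CPM of the 10 clock genes (above the line) and 20 other clock genes (below it) in each library, minus the gene's own mean over the 8 libraries, with red above and blue below that mean and colours limited to 1 in either direction. Ciart, Usp2 and Bhlhe40 are blue in both rd10 P15 libraries and red in both WT P15 and both rd10 P21 libraries. Tef is red in replicate 1 and blue in replicate 2 of WT P15 and of rd10 P15.

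For the surroundings of the clock, 3 further lists were read. Of 9 genes of retinal clock output and light input, 8 were tested. None was called in any comparison by edgeR (0.0196% to 1.48% of all genes) or by DESeq2 (0.557% to 4.67%). At P15 the largest difference was Adcyap1 at -0.81 (SE 0.39, edgeR adjusted p = 0.455). Opn4, the gene of the light sensor melanopsin, was at 0.72 (SE 0.27, adjusted p = 0.335). The dopamine receptor gene Drd4 was at 0.59 (SE 0.17, adjusted p = 0.197). Opn4 and Drd4 alone had an unadjusted p under 0.05 in edgeR, where 12.3% of all genes passed. Of the 8, 3 were above 0 and 4 below it, with a median of -0.04. Of 10 glucocorticoid-responsive genes, Sgk1, a kinase gene, fell by 1.65 on the log2 scale at P15 (SE 0.24, adjusted p = 0.0466), from 126 and 103 CPM to 34.9 and 37.9 CPM, and it was higher by 1.97 (SE 0.24, adjusted p = 0.0219) in rd10 P21 than in rd10 P15. It was the 1 gene of that list called in these comparisons, where 0.23% and 0.401% of all genes were called. Of 10 activity-induced genes, edgeR called 1 higher at P15, 3 at P18 and 1 at P21, each set against the WT retinas. The shares of all genes called were 0.23%, 1.48% and 0.386% in that order. DESeq2 called 1 higher and 1 lower at P15, 4 higher at P18 and 2 higher at P21. Its shares over all genes were 2.14%, 4.67% and 2.8%. The lower gene at P15 was Npas4, at -1.41 (SE 0.35), with an adjusted p of 0.146 in edgeR and 0.0213 in DESeq2. More of the 10 had a log2 fold change above 0, namely 6, 8 and 9, with medians of 0.28, 0.95 and 0.71. Egr1, an early response factor, rose in all 3, from 58.6 and 56.2 CPM in the WT retinas to 425 and 271 in rd10 P15, a log2 fold change of 2.60 (SE 0.21, adjusted p = 0.00548).

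The genes whose pattern over the 8 libraries was nearest to Dbp and to Arntl were found among 16206 genes by the root mean square difference of log2 CPM, each centred on its own mean. For Dbp they were Rgs16 at 0.082, Ece2 at 0.092, Asph at 0.093, Traf5 at 0.093 and Pbx2 at 0.099. Of the other 9 clock genes Nr1d1 came nearest to Dbp, at rank 83 and a difference of 0.154, and Per3 next, at rank 149. For Arntl the nearest were Cep120 at 0.038, Slain2 at 0.043, Akr1e1 at 0.050, Acsl6 at 0.051 and Purb at 0.055. Nr1d2, at rank 742, and Clock, at rank 816, were the nearest of the clock genes to Arntl. Tef was farthest from both among the 9, at 0.564 from Dbp and 0.644 from Arntl.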

How the data were processed

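Whole-retina poly-A RNA was sequenced from 8 mouse libraries, 2 in each of 4 groups taken from the GEO labels. The authors deposited raw counts per Ensembl gene; the submitters' notes name HISAT2, with counting tool, build and annotation (not given in the sources used here) unknown. Symbols, exon lengths and overlaps came from GENCODE on GRCm38. Counts were filtered with filterByExpr (minimum count 10, total 15; 20457 genes), scaled by TMM and tested with edgeR 4.0.16 (quasi-likelihood, robust, 4 group means, all 8 libraries, no block) in R 4.3.3, with Benjamini-Hochberg adjustment over all genes. CPM used TMM-scaled library sizes, and log2 CPM a prior count of 2. DESeq2 1.42.0 was the alternative, beside other scalings, filters, a replicate block, a term for sex, left-out libraries and removal of the length trend (lowess span 0.3). Scripts were tested on simulated counts.

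The 10 genes and the gene lists were chosen with earlier results of these data known. Every gene of the 10 is named, and among rd10 groups and in the lists up to 3 genes with the largest absolute log2 fold change; Arntl and Clock in rd10 P21 against rd10 P15 were named after their values were seen. Total counts of 28076947 to 33724562 per library gave at least 226 counts per gene. The labels call the 2 libraries of a group biological replicates and do not name the animals, so p-values measure the spread between these libraries. Replicate numbers are not stated to pair libraries. The correlation of replicate differences between groups, over all tested genes, ran from -0.02 to 0.06. A value over all genes cannot show whether libraries of the same number shared handling that moved some genes.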

Additional observations from a re-analysis of the deposited data

How the results depend on the processing

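The number of the 10 genes called was 0 in all 6 comparisons with edgeR. For rd10 P15 against WT P15 it was 1 (Ciart) with DESeq2, with no filter on low counts, with only the 4 libraries compared and with the length trend removed, and it ran from 0 to 1 when 1 library was left out. For rd10 P18 against WT P15 and rd10 P21 against rd10 P18 it was 0 in every fit but that without rd10 P18 replicate 2. That fit left 1 rd10 P18 library, replicate 1 with its trend on gene length, and calls over all genes rose too. It gave Per2 a log2 fold change of -1.07 and 1.03 in that order. Over all genes, calls at P15 numbered 47 with all libraries, 438 in DESeq2, 246 and 232 without an rd10 P18 library, 6 and 7 without an rd10 P15 library, 9 and 26 without a WT library, 16 without either rd10 P21 library, 206 with only the 4 libraries compared, 161 with the length trend removed, 144 without the filter, 16 with the replicate block and 4 with the term for sex. The replicate block called 0 of the 10 genes in every comparison.

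Of 39 log2 fold changes followed under 16 alternatives (624 values), 586 kept their direction and were not called, 8 kept their direction and became called (Ciart at P15 in 6, Per2 without rd10 P18 replicate 2 in 2), and 30, in 9 differences, turned direction. None of the 9 was called. Library size scaling moved the median of all genes to 0.13 (rd10 P18) and 0.11 (rd10 P21) relative to WT P15, and gave 0.041 for Tef at P18, and 0.0728 for Per2, 0.102 for Per3, 0.109 for Nr1d1 and 0.048 for Clock at P21. The term for sex gave -0.12 for Tef and 0.0824 for Arntl at P15, and 0.22 for Per2, 0.05 for Per3, 0.0354 for Nr1d1, -0.0619 for Dbp and 0.16 for Clock at P21. Tef at P18 was 0.10 with the replicate block and 0.0211 with the length trend removed. Nr1d1 at P21 was 0.0066 without the filter and 0.0038 with only the 4 libraries compared. With 1 library left out, Tef ran from -0.66 to 1.00 at P15 and from -0.58 to 0.67 at P18, Clock from -0.0415 to 0.0972 at P15 and from -0.16 to 0.0356 at P21, Per2 from -0.10 to 0.0333, Per3 from -0.16 to 0.13, Nr1d1 from -0.0447 to 0.0584 and Dbp from -0.14 to 0.19 at P21. The cause was not tested. Ciart was the shallowest of the 10, with a lowest count of 226; calls at other depths or group sizes were not tested.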
